A study of Mus musculus with 9 samples.

Results

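Splicing of pre-mRNA is carried out by the spliceosome, and the genes described here code for its core proteins and for the factors that direct it. They are the protein-coding mouse genes in 9 count files whose symbol starts with Snrp, Sf3a, Sf3b, Srsf, Prpf or U2af, or is one of Lsm1 to Lsm8. In all, 56 of the 47729 identifiers in the files (21697 of them protein-coding genes) met this rule, and 55 had enough counts to be tested. They were sorted by role into 33 proteins of the small nuclear ribonucleoproteins (snRNPs), called core here (the Sm and U6 Lsm rings, the proteins specific to U1 and U2, SF3a and SF3b, and 5 Prpf genes of the tri-snRNP), 11 SR proteins (the Srsf genes), 3 U2AF genes, 8 other Prpf genes and Lsm1.

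The libraries were made from dissected ventral midbrain of mice at postnatal day 180. All mice, controls included, were C57/Bl6, carried Cre on one copy of the Pitx3 locus (Pitx3-Cre/+) and the reporter Rosa-lox-stop-lox-Yfp, and they differed in Dot1l: Dot1l(+/+) controls, Dot1l(fl/+) with 1 floxed allele and Dot1l(fl/fl) with 2. Dot1l is the methyltransferase of lysine 79 on histone H3. There were 3 libraries per genotype, and each pooled 3 mice; replicates are therefore pools.

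Pitx3 drives Cre in dopamine neurons, and the dissected tissue also holds many cells without Cre. The labels call the material dopamine neurons and the series text speaks of sorted embryonic cells, while the label of every library gives day 180 and a tissue dissection. In the control libraries, 10 dopamine neuron markers summed to 624 to 688 CPM (counts scaled to a common library size), beside 10193 to 11244 for 8 oligodendrocyte markers and 4406 to 4793 for 8 astrocyte markers. In such bulk tissue, fewer cells of a type and less RNA per cell cannot be told apart. The deposited counts summed to between 16422135 and 28403218 per library. Dot1l itself had 85.2, 80.2 and 85.1 CPM in the controls, while Dot1l(fl/+) held 84.2, 60.6 and 75.6 CPM and Dot1l(fl/fl) held 82.1, 73.9 and 82.8. These counts include exons outside the floxed part, so they check nothing. Dot1l(fl/+) replicate 2 stood apart from its group: its counts differed from those of the other 2 libraries by 14.5 and 15.7 times the variance of counting alone, while the other 7 replicate pairs lay between 4.23 and 7.90.

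An intron is removed by snRNPs that assemble on it in turn. The U1 snRNP finds the 5′ splice site, U2AF and then the U2 snRNP bind near the 3′ splice site and the branch point, and the U4/U6.U5 tri-snRNP joins before catalysis. Each snRNP of the U1, U2, U4 and U5 kind holds a ring of Sm proteins, U6 holds a ring of Lsm proteins, and SF3a and SF3b are parts of the U2 snRNP. SR proteins are not snRNP parts: they bind exonic sequences in pre-mRNA, recruit U1 and U2AF to nearby sites, and many of them control their own mRNA through exons that trigger its decay. The counts are per gene and do not tell such isoforms apart.

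The 56 genes together took 0.403 to 0.427% of the counts of a library. Levels between genes are compared here as RPKM, the CPM per kilobase of merged exons, in the 3 control libraries. Snrpn, which codes for the Sm protein SmN of the brain and lies in an imprinted locus, had the highest level, with 163, 161 and 159 RPKM. It was followed by Srsf5 with a mean of 66.7 ± 4.79 RPKM (SD, n = 3), and these 2 did not overlap. Next came Srsf1, the SR protein also known as SF2/ASF, with 43.7 ± 4.33 RPKM and Srsf2 (SC35) with 43.0 ± 2.55, which did not differ beyond their spread. Prpf8, the large U5 protein at the catalytic centre, was at 37.6 ± 1.23 RPKM and Sf3b2 at 36.2 ± 0.974, again within reach of each other.

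The classes differed in level. The median RPKM in controls was 27.4 over the 11 SR genes and 7.14 over the 33 core genes, against 4.57 over all 17671 genes tested. Within the core it was 9.57 for SF3a and SF3b, 7.14 for the tri-snRNP Prpf genes, 6.71 for the Sm ring, 6.65 for the proteins specific to U1 and U2, and 1.62 for the U6 Lsm ring. The lowest members were U2af1l4, a U2AF-like gene that did not pass the filter on low counts, with 2 to 10 counts per library, and Lsm5 and Lsm7, with 4 to 17 and 9 to 26 counts.

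**Figure D1:**
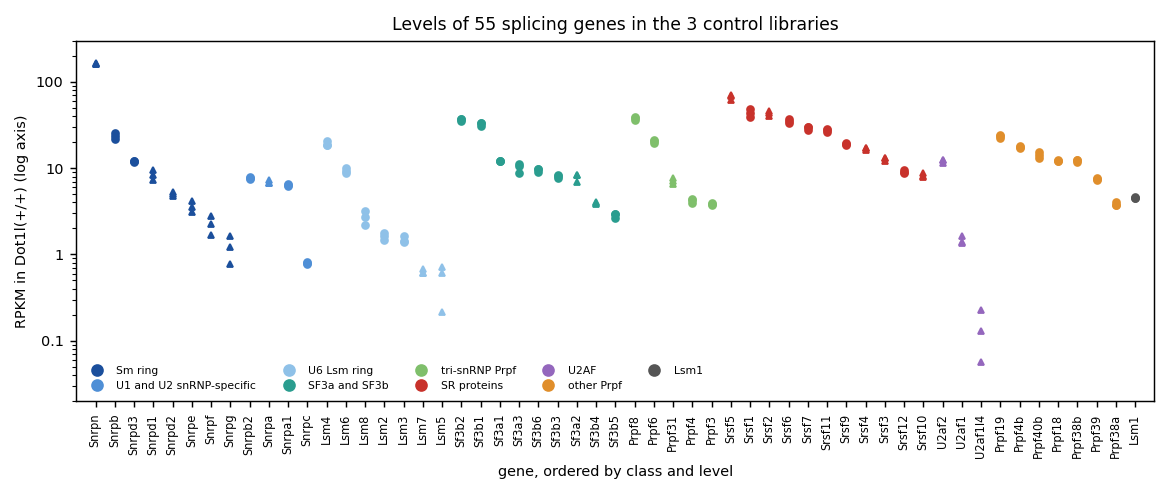
Level of 55 of the genes in the 3 Dot1l(+/+) libraries (1 point per library, RPKM on a log axis), ordered by class and level; triangles mark genes that share 10% or more of their 50-base sequences or exon bases with another gene. Snrpn stands at the top with 159 to 163 RPKM, the SR genes lie between 8.29 and 66.7 on average, and U2af1l4 lies at the bottom.

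Many of these levels may depend on how reads from near-identical copies were counted, which the sources used here do not give. In the GENCODE M21 transcripts, 13 of the 56 genes share 10% or more of their 50-base sequences with another gene, 5 of them in the Sm ring. These 13 had a median of 3.94 RPKM in controls, against 10.2 for the other 43. The 13 also had shorter transcripts, with a median longest transcript of 1129 bases against 3100. The cause of the difference in level was not tested. U2af1, the small U2AF subunit that reads the 3′ splice site, shares 59.4%, and its processed pseudogene Gm10232 took 268% of its CPM. Snrpf shares 21.3%, and the pseudogene Gm13092 took 290% of its CPM. Srsf5 shares 11.2%, among others with the pseudogene Gm12966 (10.5%), which stood at 78.1 CPM over the 9 libraries or 30.2% of Srsf5. With exons that overlap those of another gene counted too, 20 of the 56 genes are uncertain in this way; among them, Snrpn shares 27.3% of its exon bases with Gm38393 and Snurf on the same strand, and Snrpf shares 85.4% with genes on the opposite strand. The library kit keeps strand, but the strand setting of the counting is not given in the sources used here.

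The first comparison asked how a single floxed allele of Dot1l relates to these genes. Of all 17671 genes, 0 passed an adjusted p of 0.05 between Dot1l(fl/+) and controls (edgeR quasi-likelihood test, lowest adjusted p 0.412), and DESeq2 called 3, with none of the 55 splicing genes among them. At an unadjusted p under 0.05, which is the only threshold that any of the 55 genes passed, edgeR called 6 of the 55, or 10.9%, beside 8.39% of all genes. Of the 6, 1 was higher and 5 were lower, where 4.3% of all genes were higher and 4.09% lower. The higher gene was Snrpd2 of the Sm ring, and the lower ones included the SR genes Srsf5 and Srsf11 and the Prpf genes Prpf39 and Prpf4b.

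Srsf5 (SRp40; ENSMUSG00000021134, chr12:80945504-80950507, GRCm38) had 244.5, 273 and 281 CPM in the controls, while the Dot1l(fl/+) libraries had 245, 221 and 242. The groups touched, since control replicate 1 lay with the Dot1l(fl/+) libraries. The means ± SD were 266 ± 19.1 and 236 ± 13.1 CPM (n = 3), and the log2 fold change was −0.17 (SE 0.060, edgeR unadjusted p 0.0122, adjusted p 0.541). The call did not hold without control replicate 2 (edgeR unadjusted p 0.0532) or 3 (edgeR unadjusted p 0.0674). In a fit with an offset for transcript length and GC content per library, described further on, the log2 fold change was −0.084 and the call was lost too (edgeR unadjusted p 0.203). The pseudogene Gm12966, which shares sequence with Srsf5, had a log2 fold change of −0.18 (SE 0.083, edgeR unadjusted p 0.0501).

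Srsf11 (SRp54, ENSMUSG00000055436, chr3:158010473-158036639), which shares no sequence with another gene, had 219.9, 242 and 231 CPM in controls, while Dot1l(fl/+) had 219, 199.6 and 199. The groups did not overlap, but the highest Dot1l(fl/+) library lay just under the lowest control. The log2 fold change was −0.17 (SE 0.055, edgeR unadjusted p 0.00928, adjusted p 0.541), and without control replicate 2 it was −0.12 at an unadjusted p of 0.0609.

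Prpf39 (ENSMUSG00000035597, chr12:65036333-65063386), a factor that associates with the U1 snRNP and is counted here with the other Prpf genes, outside the core, had 87.4, 91.8 and 90.5 CPM in controls against 87.2, 80.2 and 67.4 in Dot1l(fl/+). The Dot1l(fl/+) libraries spread widely and the highest of them lay just under the lowest control. The log2 fold change was −0.20 (SE 0.079, edgeR unadjusted p 0.0236), and without Dot1l(fl/+) replicate 3 it was −0.10 at an unadjusted p of 0.120. Its unadjusted p was also above 0.05 without control replicate 2 (0.0728) or 3 (0.0556), and with the length and GC offset, where the fold change was −0.076 (0.167). Prpf4b (ENSMUSG00000021413, chr13:34875302-34906064), the kinase PRP4 that acts on tri-snRNP proteins, had 143, 147 and 151 CPM in controls against 139.7, 127 and 133 in Dot1l(fl/+), with a log2 fold change of −0.14 (SE 0.051, edgeR unadjusted p 0.0176). Its groups did not overlap, and its unadjusted p was 0.0644 without control replicate 3 and 0.0546 without Dot1l(fl/+) replicate 2. With the offset it was at −0.035 (edgeR unadjusted p 0.487).

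Snrpd2 (SmD2; ENSMUSG00000040824, chr7:19149722-19153542) was the one gene called in the core classes. It had 13.9, 12.3 and 13.2 CPM in controls against 15.2, 15.5 and 16.3 in Dot1l(fl/+), with no overlap. The log2 fold change was 0.26 (SE 0.11, edgeR unadjusted p 0.0349, adjusted p 0.568), and the unadjusted p was 0.102 without control replicate 2, 0.0614 without control replicate 3 and 0.0919 without Dot1l(fl/+) replicate 3. With the offset it was at 0.19 (edgeR unadjusted p 0.0873). It shares 11.7% of its 50-base sequences with other genes, most with the pseudogene Gm10120, not analysed here.

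**Figure D2:**
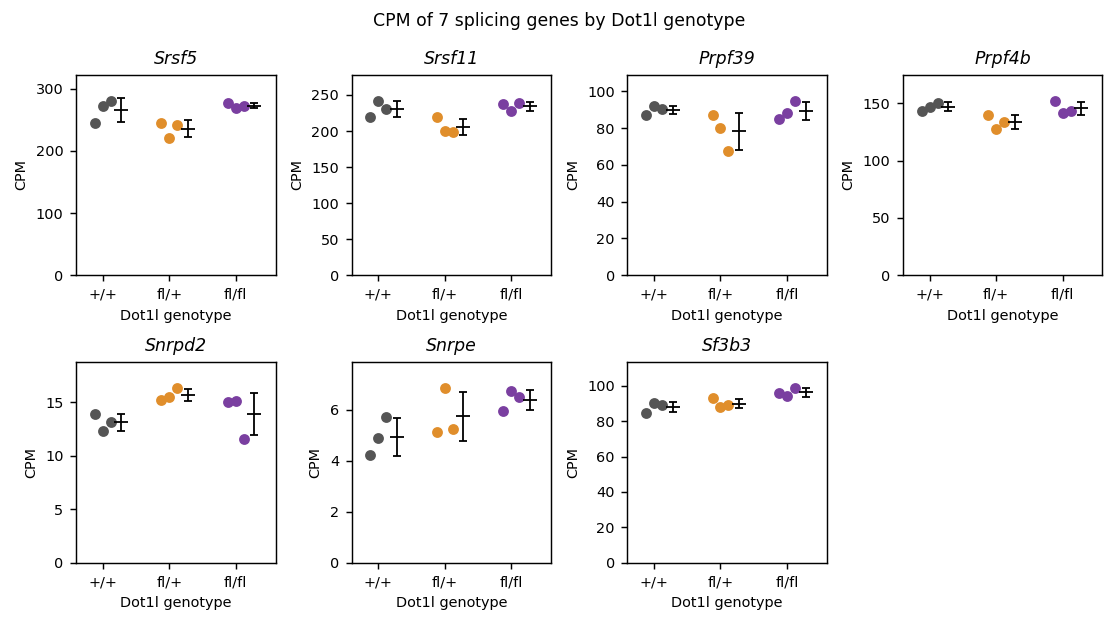
CPM of 7 splicing genes with an unadjusted p under 0.05 in a comparison with controls, 1 point per library (3 pools per Dot1l genotype); the bar beside each group is its mean ± SD, and every axis starts at 0. The Dot1l(fl/+) libraries of Snrpd2 lie at 15.2 to 16.3 CPM, above all controls, and those of Prpf4b at 127 to 139.7, below all controls.

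The promoters of the SR pair that was lower and of the Sm gene that was higher are shown because these were the SR and core genes called in Dot1l(fl/+). Each sequence is the 250 bases before a RefSeq transcript start in GRCm38.p6, on the strand of the gene, 5′ to 3′. Capitals mark matches to CCGGAAG, the core of sites for ETS factors, or to the NRF1 palindrome (GCGC and TGCGC with any 1 base between them), on either strand. The search also covered AAGATGGCG (YY1), TGACGTCA (CRE) and TATAAA (the TATA box), which have no match in these promoters. All 5 motifs were chosen after the data were seen, and the matches shown do not overlap. Srsf11 has 2 starts in RefSeq, and both are given.

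Srsf5, chr12:80945249-80945498, plus strand: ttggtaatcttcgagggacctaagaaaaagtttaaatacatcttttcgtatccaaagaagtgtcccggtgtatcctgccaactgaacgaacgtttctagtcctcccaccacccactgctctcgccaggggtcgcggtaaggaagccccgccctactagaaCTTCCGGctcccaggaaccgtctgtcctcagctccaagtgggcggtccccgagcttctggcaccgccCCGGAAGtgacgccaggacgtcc
Srsf11, chr3:158036607-158036856, minus strand: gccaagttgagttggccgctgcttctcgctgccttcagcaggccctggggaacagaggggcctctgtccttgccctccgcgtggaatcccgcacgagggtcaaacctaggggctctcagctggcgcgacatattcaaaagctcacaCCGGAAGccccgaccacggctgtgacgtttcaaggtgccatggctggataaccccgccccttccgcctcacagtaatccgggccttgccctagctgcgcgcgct
Srsf11, chr3:158031749-158031998, minus strand: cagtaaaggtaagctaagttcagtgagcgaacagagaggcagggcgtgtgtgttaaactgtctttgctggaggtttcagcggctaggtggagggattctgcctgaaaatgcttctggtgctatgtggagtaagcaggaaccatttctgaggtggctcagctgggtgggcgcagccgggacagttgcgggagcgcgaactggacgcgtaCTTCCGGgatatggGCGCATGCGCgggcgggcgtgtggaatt
Snrpd2, chr7:19149588-19149837, plus strand: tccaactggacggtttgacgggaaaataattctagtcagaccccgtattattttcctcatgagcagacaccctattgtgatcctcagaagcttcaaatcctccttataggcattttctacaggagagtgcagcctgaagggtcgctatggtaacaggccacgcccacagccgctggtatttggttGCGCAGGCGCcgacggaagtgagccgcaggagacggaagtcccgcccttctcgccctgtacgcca

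RefSeq gave 61 promoters for 47 of the 56 genes. CCGGAAG was in 32.8% of them and in 6.91% of all 32851 promoters of the same length, and the NRF1 palindrome was in 24.6% against 3.74%. The other motifs were rarer: AAGATGGCG was in 1.64% against 0.606%, TGACGTCA in 4.92% against 1.55% and TATAAA in 8.2% against 12.4%. With the 50 bases after the start added, the window searched first, the shares were 36.1% against 8.86% for CCGGAAG, 24.6% against 4.6% for the NRF1 palindrome, 6.56% against 1.4% for AAGATGGCG, 4.92% against 1.79% for TGACGTCA and 8.2% against 13.6% for TATAAA. By class, CCGGAAG was in 12 of 36 core promoters and in 6 of 14 SR promoters, and the NRF1 palindrome in 8 and in 4. These are counts of promoters and not of genes: the 36 belong to 28 core genes and the 14 to 11 SR genes. Overlapping promoters of a gene, as in Srsf4 and Sf3b2, can hold the same match, so the classes are not compared by these counts. The median number of CpG pairs in 250 bases was 19 in the promoters of these genes and 6 in all promoters. The 4 promoters that RefSeq gives for Snrpn, the gene with the highest level, held 2 to 4 CpG pairs, no match to CCGGAAG or to the NRF1 palindrome, and 1 TATAAA. A match is a description of the sequence and not a bound site.

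The medians of the core genes and the SR genes lay on opposite sides of 0 in Dot1l(fl/+). Of the 33 core genes, 25 had a log2 fold change above 0, with a median of 0.034, and of the 11 SR genes 9 lay below 0, with a median of −0.067. Over all genes the median was −0.0034 and 48.9% lay above 0. Core minus SR, taken between the 2 medians, was 0.10. It was 0.050 with the length and GC offset, which moved the SR median to −0.0092 with 5 of 11 above 0, and 0.16 without control replicate 1. With 1 core gene called higher, 0 lower, and 2 SR genes called lower, most of these values did not pass an unadjusted p of 0.05 by themselves, and the classes were not tested as classes.

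Within the core, the Sm ring lay highest. Of its 8 genes 7 were above 0, with a median of 0.17: Snrpf at 0.27, Snrpd2 at 0.26, Snrpe at 0.21, Snrpg at 0.19, Snrpd1 at 0.16, Snrpd3 at 0.098 and Snrpb at 0.0015. Snrpn was at −0.023, with 353, 347 and 343 CPM in controls against 338, 358 and 330 in Dot1l(fl/+), so the gene with the highest level in the class overlapped its controls. Snrpf and Snrpg averaged 2.08 and 2.09 CPM over the 9 libraries, and their SEs were 0.22 and 0.27. Of the 8 Sm genes, 6 are among the 20 that share sequence or exons with another gene. The pseudogene Gm13092, a copy of Snrpf, was at 0.48 (SE 0.18, edgeR unadjusted p 0.0212). The copies Gm14277 of Snrpd1, Snrpert of Snrpe and Gm8186 of Snrpg were at −0.023, 0.030 and 0.16. Of the proteins specific to U1 and U2, Snrpa (U1-A) was at 0.062 and Snrpc (U1-C), which helps U1 to hold the 5′ splice site, at 0.13.

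The U6 Lsm ring was spread most widely. Lsm2 was at 0.25 with all 3 Dot1l(fl/+) libraries (5.76, 6.08 and 6.37 CPM) above the controls (5.11, 5.58 and 4.62). Lsm7 had the lowest value of all core genes, −0.58 (SE 0.31), with 1.09, 0.988 and 0.977 CPM in controls against 0.783, 0.424 and 0.84 in Dot1l(fl/+), a difference of few counts. Lsm4 was at 0.0085 and Lsm8, the subunit that makes the ring nuclear, at −0.041. Lsm1, which takes the place of Lsm8 in the cytoplasmic ring of mRNA decay, was at −0.052.

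No SF3a, SF3b or tri-snRNP gene passed an unadjusted p of 0.05. SF3a and SF3b had a median of 0.045, from −0.072 to 0.14, with Sf3a1 at −0.0012, Sf3b1, the subunit that holds the branch point, at −0.072 and Sf3b4 at 0.089. In the tri-snRNP class the median was 0.0099, with Prpf8 at 0.0099 and Prpf31, which bridges U4/U6 and U5, at 0.034. The SEs of Sf3a1, Sf3b1 and Prpf8 were 0.052, 0.050 and 0.052.

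Among the SR genes, after Srsf5 and Srsf11 the lowest values were Srsf12 at −0.14, Srsf1 at −0.089, Srsf9 at −0.071, Srsf6 at −0.067 and Srsf3 at −0.063. Srsf7 was at −0.017 and Srsf2 at −0.013, and 2 genes lay above 0, Srsf4 at 0.048 and Srsf10, an SR-like repressor, at 0.012. Srsf1 overlapped between the groups, with 225, 249.7 and 274 CPM in controls against 241, 235 and 228 in Dot1l(fl/+). The other Prpf genes went the same way, with 7 of 8 below 0, a median of −0.082, and only Prpf19, the ubiquitin ligase of the Prp19 complex, above 0 at 0.066. U2af1 was at −0.22 and U2af2, the large subunit that binds the polypyrimidine tract, at 0.089.

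**Figure D3:**
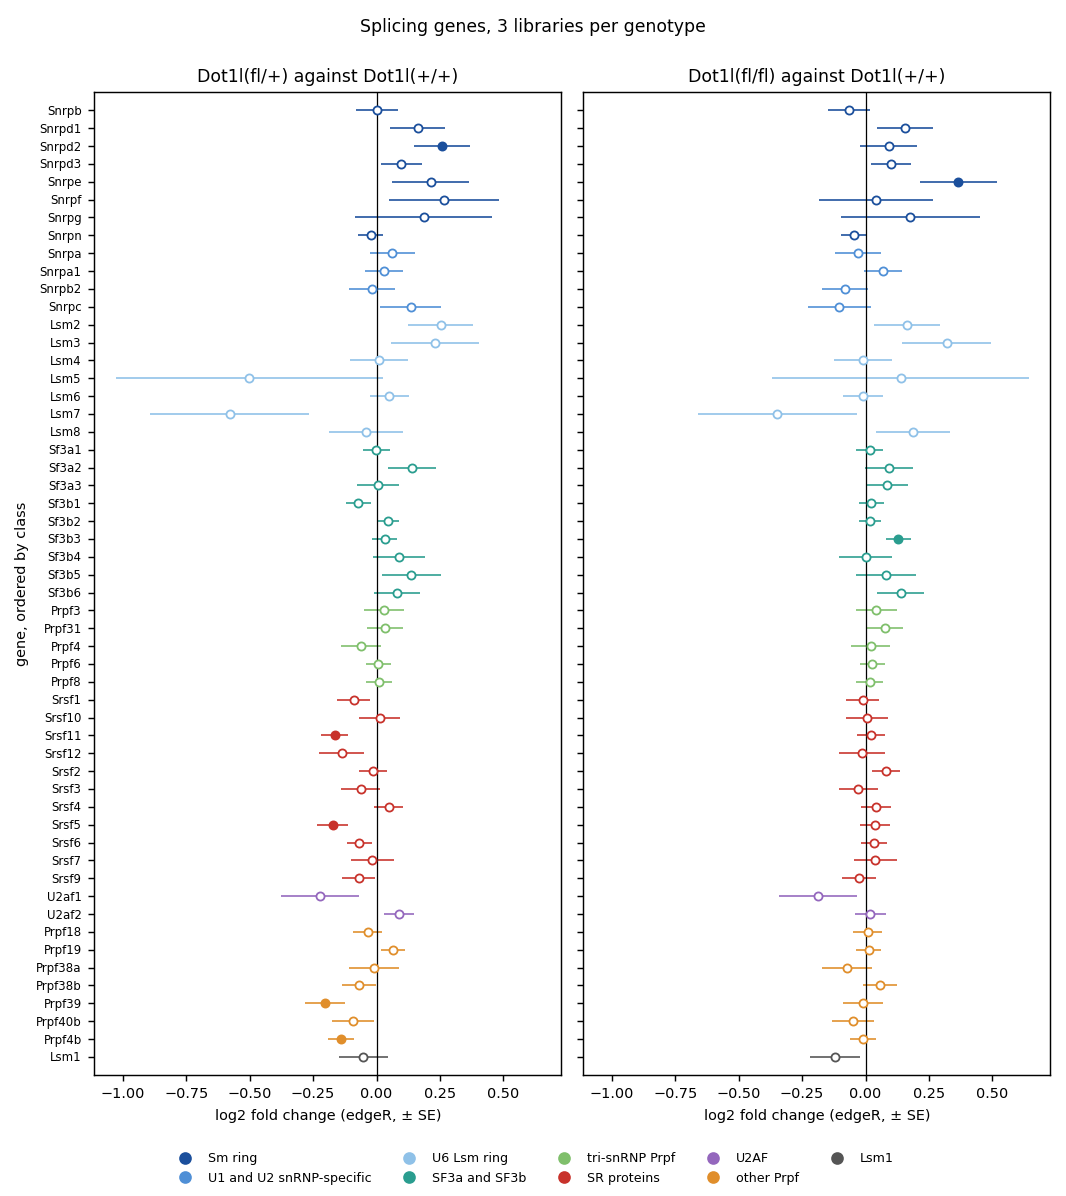
Log2 fold change ± SE (edgeR, 3 libraries per genotype) of 54 tested genes against Dot1l(+/+), for Dot1l(fl/+) in the left panel and Dot1l(fl/fl) in the right one, coloured by class; filled points have an unadjusted p under 0.05, and none passed after adjustment. In Dot1l(fl/+) the Sm ring lies mostly to the right of 0 and the SR and other Prpf genes mostly to the left, while in Dot1l(fl/fl) the SR genes lie about 0.

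By library, the mean log2 CPM of the SR genes relative to the control mean was −0.066, 0.020 and 0.046 in controls against −0.041, −0.059 and −0.10 in Dot1l(fl/+). Control replicate 1 lay among the Dot1l(fl/+) libraries. The mean of the core genes was −0.0030, 0.0085 and −0.0056 in controls against 0.019, 0.060 and 0.053 in Dot1l(fl/+), with no overlap. Core minus SR was 0.063, −0.011 and −0.052 in controls against 0.060, 0.12 and 0.16 in Dot1l(fl/+), so the highest control lay above the lowest Dot1l(fl/+) library. As a share of all counts, the SR genes took 0.135, 0.146 and 0.148% in controls against 0.137, 0.134 and 0.133% in Dot1l(fl/+), and the core genes 0.192 to 0.196% and 0.194 to 0.197%.

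**Figure D4:**
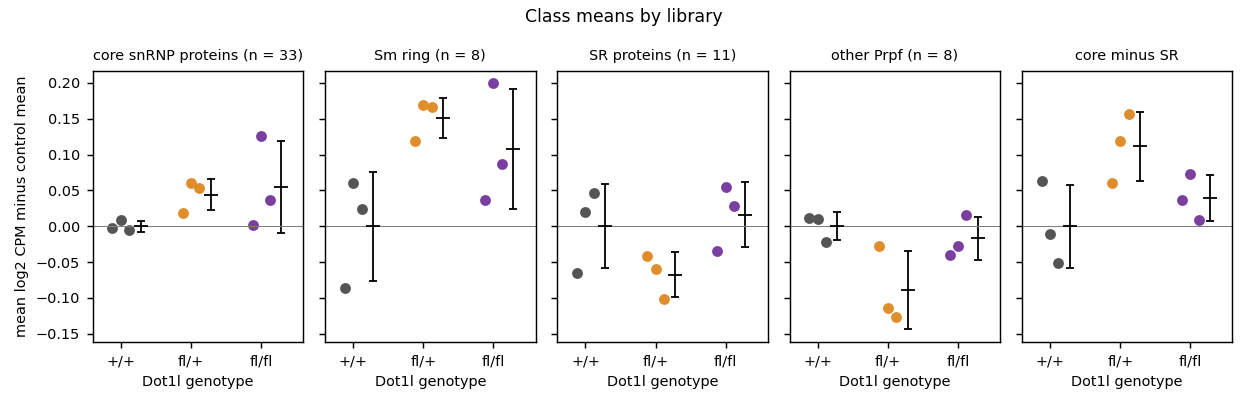
Mean log2 CPM of the genes of a class in each library, minus the mean of the control libraries, for the core genes, the Sm ring, the SR genes, the other Prpf genes, and core minus SR; points are libraries and bars are mean ± SD over 3 libraries. The Sm ring lies at 0.12 to 0.17 in Dot1l(fl/+) and at −0.086 to 0.061 in controls, and core minus SR overlaps between these 2 groups.

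Transcript length and GC content moved with these differences. The longest transcript had a median of 1238 bases in the Sm ring, 2061 over the core, 3106 for the SR genes and 4190 for the other Prpf genes. Across the 55 genes, Spearman's rho between transcript length and log2 fold change in Dot1l(fl/+) was −0.30, and across the 17606 tested genes with a length it was −0.286 (genes that share the same libraries, not replicates). With GC content it was 0.331 and 0.239. With the mean count of a gene it was −0.374 across the 55 genes. In the fit with an offset for length and GC content per library, which brought the SR median close to 0, the median of the other Prpf genes was −0.013, with 4 of 8 above 0, and that of the core genes 0.041, with 26 of 33 above 0, where 53.3% of all genes lay above 0.

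The offset was fitted to each library without genotype, so it also takes up genotype differences that follow length or GC content. The design cannot tell such differences from technical ones. In the fit with the offset 2 of the 55 genes had an unadjusted p under 0.05, beside 6.65% of all genes. They were Srsf11 at −0.14 (edgeR unadjusted p 0.0165) and Lsm7 at −0.67 (edgeR unadjusted p 0.0475). Of the 6 genes called without the offset, Srsf11 was the one that stayed under 0.05. The median of the Sm ring was 0.11 with the offset and 0.17 without it, with 6 and 7 of its 8 genes above 0.

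**Figure D5:**
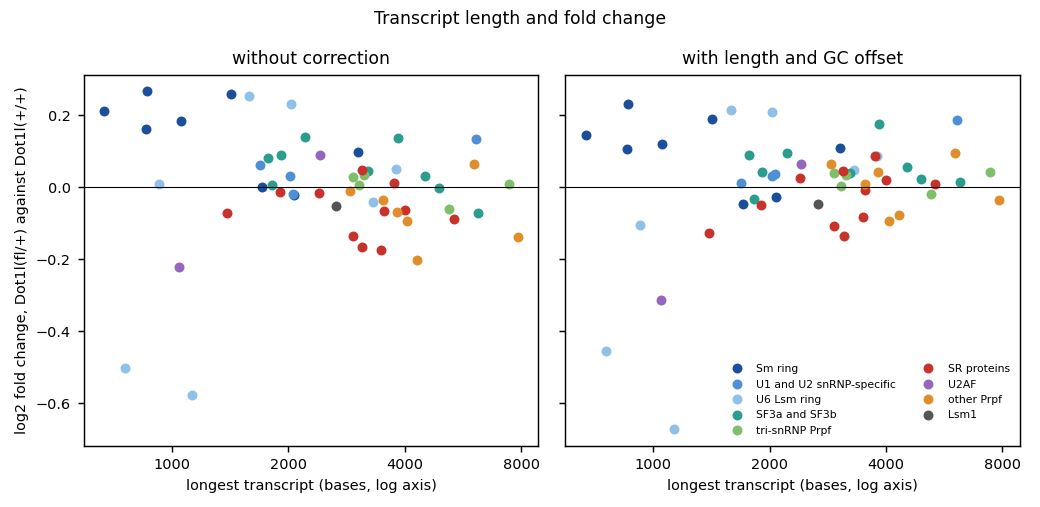
Log2 fold change of 54 genes in Dot1l(fl/+) against the length of the longest transcript (bases, log axis), without correction and with the offset for length and GC content; each point is a gene, coloured by class. Without correction the Sm genes lie above 0 except Snrpn, the other Prpf genes below it except Prpf19, and with the offset the medians of the SR and other Prpf genes are −0.0092 and −0.013.

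Counted by libraries that did not overlap, 6 of the 55 genes lay above all controls in Dot1l(fl/+), beside 6.84% of all genes, and 5 lay below, beside 6.47%. Those above were Snrpd2, Snrpd3, Lsm2, Sf3b2, Srsf4 and Prpf19, and those below included Srsf11, Prpf39, Prpf4b and Lsm7. Sf3b2 shows the scale, with 252, 250.5 and 239.7 CPM in controls against 256, 255 and 255 in Dot1l(fl/+).

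Cell type markers were read in the same libraries. Of 10 dopamine neuron markers 3 were lower in Dot1l(fl/+) at an unadjusted p under 0.05 and 0 higher, with sums of 487 to 631 CPM against 624 to 688 in controls. Of 8 oligodendrocyte markers 3 were higher and 0 lower, with sums of 10349 to 11700 against 10193 to 11244. The lists for neurons, astrocytes, microglia and endothelial cells had at most 1 gene called in each direction. Every marker had counts in at least 1 library. The part of cell composition in the values of the splicing genes was not tested.

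The second comparison asked about 2 floxed alleles. Between Dot1l(fl/fl) and controls, 0 of 17671 genes passed an adjusted p of 0.05 in edgeR (lowest adjusted p 0.0906) and 3 passed in DESeq2. At an unadjusted p under 0.05 edgeR called 2 of the 55 splicing genes, or 3.64%, beside 3.93% of all genes, so the share was that of the background. Both were higher and 0 lower, where 2.21% of all genes were higher and 1.72% lower. With the length and GC offset the same 2 genes were called, beside 3.88% of all genes.

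The first of them was Sf3b3 (ENSMUSG00000033732, chr8:110810239-110846787), which codes for the SF3b subunit also known as SAP130. It had 84.6, 90.2 and 89.3 CPM in controls against 96.0, 94.0 and 98.8 in Dot1l(fl/fl), and all 3 Dot1l(fl/fl) libraries lay above the controls. The log2 fold change was 0.13 (SE 0.049, edgeR unadjusted p 0.0213, adjusted p 0.999), and its unadjusted p was 0.103 without control replicate 1 and 0.0720 without Dot1l(fl/fl) replicate 3. In Dot1l(fl/+) it was at 92.9, 87.9 and 89.2 CPM, within reach of controls, with a log2 fold change of 0.032.

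The other was Snrpe (SmE; ENSMUSG00000090553, chr1:133603871-133610291). It had 4.21, 4.90 and 5.71 CPM in controls against 5.96, 6.72 and 6.49 in Dot1l(fl/fl), without overlap. The log2 fold change was 0.36 (SE 0.15, edgeR unadjusted p 0.0315, adjusted p 0.999), and DESeq2 gave an unadjusted p of 0.0501. It shares 20.8% of its 50-base sequences, mostly with the pseudogene Snrpert, which was at 0.22 (SE 0.24). The call was lost when any of 4 libraries was left out: control replicate 1 (unadjusted p 0.131) or 2 (0.0646), or Dot1l(fl/fl) replicate 2 (0.0882) or 3 (0.0602).

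In Dot1l(fl/fl) both medians lay above 0. Of the core genes 24 of 33 lay above 0, with a median of 0.043, and of the SR genes 7 of 11, with a median of 0.021, beside a median of 0.00090 and 50.4% above 0 over all genes. Within the core the median was 0.079 for SF3a and SF3b, 0.096 for the Sm ring, 0.14 for the U6 Lsm ring and 0.027 for the tri-snRNP Prpf genes. It was −0.056 for the proteins specific to U1 and U2, with 3 of 4 below 0. The U6 Lsm median was the value of Lsm5 (SE 0.51, 4 to 17 counts per library), and 4 of the 7 genes of that ring lay above 0. With the offset 37 of the 55 genes lay above 0, beside 52.5% of all genes. Core minus SR was 0.022, it turned to −0.0070 and −0.013 without control replicate 2 and 3, and by library it was 0.036, 0.072 and 0.0090, all within the range of the controls but for replicate 2. The SR values ran from −0.028 (Srsf3) to 0.081 (Srsf2), with Srsf5 at 0.036 and Srsf11 at 0.021. Prpf39 was at −0.011 and Prpf4b at −0.011. Snrpd2 was at 0.090, since its Dot1l(fl/fl) libraries held 15.0, 15.1 and 11.6 CPM and replicate 3 lay below all controls.

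The other core genes named by role had no value past the threshold. Snrpd1 was at 0.15, Snrpg at 0.18, Lsm2 at 0.16 and Lsm8 at 0.19, while Snrpb was at −0.065, Snrpa at −0.030, Snrpc at −0.10 and Lsm7 at −0.35. Sf3a1, Sf3b1 and Prpf8 were at 0.016, 0.023 and 0.016. Snrpn was at −0.047, with 343, 327 and 340 CPM, each below every control library (343.4 and above). Libraries did not overlap for 3 genes above controls (Sf3b3, Sf3b6 and Snrpe), beside 5.03% of all genes, and for 4 below (Snrpn, U2af1, Lsm1 and Lsm7), beside 5.25%. In the same libraries 9 of 10 dopamine neuron markers were lower at an unadjusted p under 0.05, with sums of 470 to 501 CPM, and 2 of 8 microglia markers were higher, with sums of 274 to 301 against 251 to 269 in controls. No marker of the other 4 lists was called. The lowest p was that of the dopamine transporter Slc6a3, at −0.68 (edgeR adjusted p 0.0906). Whether these markers bear on the splicing genes was not tested.

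Dot1l(fl/fl) was also set against Dot1l(fl/+), a comparison that shares its libraries with both others. No gene passed an adjusted p of 0.05 in edgeR (0 of 17671, lowest adjusted p 0.350), while DESeq2 called 14, none of them among the 55. At an unadjusted p under 0.05 edgeR called 5 of the 55, or 9.09%, beside 6.48% of all genes, all 5 higher and 0 lower, where 3.6% of all genes were higher and 2.87% lower. They included Srsf5 at 0.21 (SE 0.060, edgeR unadjusted p 0.00380), Srsf11 at 0.19 (SE 0.055, edgeR unadjusted p 0.00443), Prpf39 at 0.19 and Prpf4b at 0.13. These genes were the 5 lower ones of Dot1l(fl/+) against controls, and the same 3 Dot1l(fl/+) libraries enter both values, which are therefore not independent.

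Set side by side, Srsf5 had a mean of 266, 236 and 273 CPM in Dot1l(+/+), Dot1l(fl/+) and Dot1l(fl/fl), and Srsf11 had 231, 206 and 234. All 3 Dot1l(fl/fl) libraries of Srsf5 (277, 269.6 and 272 CPM) lay above the Dot1l(fl/+) libraries, and so did those of Srsf11 (237, 227.5 and 239 CPM). The calls of Srsf5 and Srsf11 held with each of the 9 libraries left out. With the length and GC offset Srsf5 was at 0.13 (edgeR unadjusted p 0.0592) and Srsf11 stayed under 0.05, while Prpf39 and Prpf4b were at 0.091 and 0.061 and no longer passed. In that fit 3 of the 55 were called, beside 5.8% of all genes: Srsf11 and Srsf2 higher and Snrpc lower, and 32 of 55 lay above 0, beside 47.7%. With 1 library left out, Prpf39 passed in 6 of 9 fits (not without Dot1l(fl/+) replicate 3 or Dot1l(fl/fl) replicate 2 or 3; with 2 genotypes alone its unadjusted p was 0.0545) and Prpf4b in 7 of 9 (not without Dot1l(fl/+) replicate 2 or Dot1l(fl/fl) replicate 1). The median was 0.079 for the SR genes (9 of 11 above 0) and 0.0027 for the core genes (17 of 33), beside 0.0015 and 50.5% above 0 over all genes. With the offset the SR median was 0.041, with 8 of 11 above 0. By libraries that did not overlap, 8 genes lay above, beside 5.98% of all genes, and 3 below, beside 5.14%. In these libraries 6 of 10 dopamine neuron markers and 4 of 8 oligodendrocyte markers were lower in Dot1l(fl/fl), and their part was not tested.

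Of the other proteins of splicing, 115 genes were listed in 7 groups and 114 were tested. In Dot1l(fl/+) 6 were higher and 4 lower than in controls at an unadjusted p under 0.05, or 8.77% of them beside 8.39% of all genes. In Dot1l(fl/fl) 2 were higher and 1 lower (2.63% beside 3.93%), and between the floxed genotypes 7 were higher and 1 lower in Dot1l(fl/fl) (7.02% beside 6.48%). None had an adjusted p under 0.05.

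The gene of lowest p in each group is named here. Among the other U snRNP proteins it was Zmat5, a protein of the minor U11/U12 snRNP, with 9.32, 10.1 and 8.38 CPM in controls. The Dot1l(fl/+) libraries had 10.2, 13.4 and 13.6 CPM, and those of Dot1l(fl/fl) 12.8, 12.2 and 10.5. Both floxed genotypes lay above all controls, with log2 fold changes of 0.42 (edgeR unadjusted p 0.00616) and 0.36 (edgeR unadjusted p 0.0165). Between the floxed genotypes it was Rnpc3, another U11/U12 protein, at 0.26. In the SMN complex, which loads Sm rings onto snRNAs, it was Gemin8 in Dot1l(fl/+), at 0.35, and between the floxed genotypes, at −0.24, and Prmt5, the methyltransferase of Sm proteins, in Dot1l(fl/fl), at 0.13. Among the Prp19 complex and catalytic factors it was Bud31 at 0.22 in Dot1l(fl/+) and Rbm22 at 0.16 in Dot1l(fl/fl) and at 0.18 between the floxed genotypes.

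In the exon junction complex, where 0 of 8 genes were called in any comparison, it was Sap18 at 0.097 in Dot1l(fl/+), Casc3 at 0.072 in Dot1l(fl/fl) and Rnps1 at 0.14 between them. Among SR-related proteins and SR kinases it was Srrm3, a neuronal relative of nSR100, at 0.13 in Dot1l(fl/+), Son at −0.090 in Dot1l(fl/fl), and Clk4, a kinase of SR proteins, at 0.18 between them. Of the hnRNP proteins Hnrnpab came first in both comparisons with controls, at 0.15 and 0.13, and Hnrnph1 between the floxed genotypes, at 0.12. Of the splicing regulators listed for brain it was Qk in Dot1l(fl/+), at −0.13. Qk had 729, 757 and 728 CPM in controls against 706, 658 and 653 in Dot1l(fl/+). Between the floxed genotypes it was again Qk, at 0.12, and in Dot1l(fl/fl) it was Elavl4, at −0.13.

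Gm38393, which overlaps Snrpn and Snurf, stood apart from Snrpn itself in Dot1l(fl/+). It had 25.7, 26.8 and 28.4 CPM in controls against 25.7, 18.9 and 21.5 with a single floxed allele, while Dot1l(fl/fl) held 27.1 to 28.03. In Dot1l(fl/+) it stood at −0.29 (SE 0.098, edgeR unadjusted p 0.0101, adjusted p 0.541), against −0.023 for Snrpn, and how the counting split reads between these overlapping genes is not given in the sources used here.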

How the data were processed

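RNA sequencing of ventral midbrain gave 9 libraries, 3 per Dot1l genotype. The authors made strand-keeping libraries and deposited, for each Ensembl gene, its raw counts. The submitters' processing notes name bcl2fastq 2.17, Trimmomatic 0.30, DESeq2 1.10.1 and the build GRCm38.p4; the aligner, the counter and the annotation release are not given in the sources used here. The authors' own comparison tables (mean, log2 fold change, SE, statistic, p-value and adjusted p-value) were not used.

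Of 47729 identifiers, 47310 had a GENCODE M21 gene (99.9% of counts). Counts were tested with edgeR 4.0.16 (R 4.3.3): filterByExpr, TMM (factors 0.988 to 1.01), 1 quasi-likelihood fit of the 9 libraries with genotype alone, and Benjamini-Hochberg adjustment over 17671 genes. CPM and RPKM use TMM-scaled library sizes. The offset held splines (4 degrees of freedom) of transcript length and GC content per library. The biological coefficient of variation was 8.81%, and intervals of counting alone would be narrower than this spread. Alternatives were DESeq2 1.42.0, its size factors, no filter, a minimum of 10 counts in every library, 2 genotypes alone, a replicate block, the offset, and each library left out. Fits of the classes without genes that have copies or overlapping exons, and without genes under a mean of 100 counts, were added after the data were seen, and DESeq2's filter level was moved from its default of 0.1 to the threshold of 0.05 after its counts were seen. Steps were tested on simulated data. Tables were made in pandas 2.3.3 and figures in matplotlib 3.10.9.

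The genes, classes and lists were chosen with earlier results of these data known, so no list was tested as a whole. Named were all genes at an unadjusted p under 0.05 in any comparison, the highest and lowest core and SR gene in each comparison with controls, genes fixed for their role, Dot1l, and the gene of lowest p in each pathway list; Srsf9, Srsf12, Lsm1, Lsm5, Sf3b2, Sf3b6, Snrpd3, U2af1l4, the marker Slc6a3, the copies and overlapping genes, and the promoter letters were named after their values were seen. The methods describe pools built from 1 mouse of each genotype per nest, but no source ties replicate numbers to nests. One gene that enters the counts is not reported here and is left out of the figures.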

Additional observations from a re-analysis of the deposited data

How the results depend on the processing

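At an adjusted p of 0.05, where edgeR called 0 genes in each comparison, the counts for Dot1l(fl/+) against controls, Dot1l(fl/fl) against controls and Dot1l(fl/fl) against Dot1l(fl/+) were 3, 3 and 14 with DESeq2 (7, 3 and 14 at its default filter level, which was replaced after these counts were seen) and 251, 118 and 164 without the filter on low counts. Fitting 2 genotypes alone gave 1 and 4 in the comparisons with controls. Leaving out each library in turn gave 0 to 5, 0 to 4 and 0 to 12. At an unadjusted p, the counts of 694 and 1145 genes in the last 2 comparisons became 1210 and 1795 without the filter, and with libraries left out the 3 counts lay at 976 to 2235, 382 to 942 and 876 to 1752.

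The splicing genes called at an unadjusted p (6, 2 and 5) became 2, 2 and 3 with the length and GC offset. DESeq2 called 1 in Dot1l(fl/fl), 2 genotypes alone gave 3 between the floxed genotypes, and without genes that have copies or overlapping exons 1 remained in Dot1l(fl/fl). With 1 library left out they numbered 2 to 7, 0 to 3 and 3 to 7; in Dot1l(fl/+) they were 2, Srsf11 among them, without control replicate 3 and 4 without control replicate 2, of which Lsm2 and Snrpd1 were higher. In Dot1l(fl/fl) they were 0 without control replicate 1 and 1 without Dot1l(fl/fl) replicate 2 or 3. Between the floxed genotypes they were 3 without Dot1l(fl/fl) replicate 2 or 3.

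Core minus SR was 0.10, 0.022 and −0.076, and with the length and GC offset 0.050, 0.029 and −0.038. With the core cut to the Sm ring and the U1 and U2 proteins it was 0.18 in Dot1l(fl/+) and −0.12 between the floxed genotypes, and with libraries left out it lay at 0.087 to 0.16, −0.013 to 0.065 and −0.13 to −0.051; the extremes of 0.16 and −0.13 came without control replicate 1 and without Dot1l(fl/+) replicate 1. Without control replicate 2 or 3 the sign turned in Dot1l(fl/fl) (−0.0070 and −0.013). The cause of these moves was not tested.

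With the replicate number as a block, 0 genes in Dot1l(fl/+) and 3 in each of the other comparisons passed the adjusted threshold, and the splicing genes called stayed at 6, 2 and 5. The block with the offset gave 3 and 4 genes at the adjusted threshold in the last 2 comparisons and 1, 2 and 2 splicing genes. The numbers were not taken as pairs, since no source ties them to nests. Libraries of the same number correlated at 0.0222 to 0.317, with 3 of 9 pairs at or under 0.1. Those of different numbers correlated at −0.267 to 0.108, and 15 of 18 closest matches had the same number.

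Values under alternatives were counted for the splicing genes named by rule or role, not for those named after their values were seen. Of 1731 such values, none with an unadjusted p under 0.05 in either fit changed sign. Another 134, from 50 values of a gene in a comparison that reached 0.23 in size in the reported fit, changed sign while passing in neither fit. Of the values counted, 46 lost and 10 gained an unadjusted p under 0.05. Among the genes not counted, Srsf12 was called in Dot1l(fl/+) without Dot1l(fl/+) replicate 1. Snrpd3 was called in Dot1l(fl/fl) without Dot1l(fl/fl) replicate 1.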
